A study of Mus musculus with 12 samples.

Results

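The kinesins are the genes whose symbol in the count table begins with Kif followed by a digit or the letter c, and there were 44 of them among 24562 genes. Of these, 38 had enough reads to be tested, among 13943 genes tested in all. Kif1bp carries the name but encodes a kinesin-binding protein with no motor domain, and Kif4-ps is a pseudogene, so that 36 of those tested were motor genes. CD-1 mice, an outbred strain, gave the oocytes without hormonal stimulation, from follicles with an antrum, and the groups differed by age and body weight and by no allele or treatment. The cohorts were PND 13, PND 16 small (mice under 9 g), PND 16 large (mice of 9 g or more) and PND 40, where PND is the postnatal day. In each cohort, oocytes of 3 mice were made into 3 pools of 18 to 45 oocytes, and the study classes PND 16 large and PND 40 oocytes as meiotically competent and the others as not. A pool averages over its oocytes, and fewer cells of a type and less RNA per cell cannot be told apart in it.

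Kinesins are ATP-driven motors that walk along microtubules or take them apart. The spindle kinesins slide and bundle microtubules, move chromosomes and build the midzone at which the cell divides. In the oocyte, the meiotic spindle on which they act forms without centrosomes. The transport kinesins carry vesicles, organelles and RNA through the cytoplasm, and a fully grown mouse oocyte stores transcripts of both kinds before it resumes meiosis.

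Total counts per pool ranged from 17671193 to 27418358, and the kinesins together took between 0.446% and 0.524% of them. All 15 oocyte markers, among them Zp3, Gdf9 and Bmp15, were detected in every pool, with a summed level of 19360 to 26640 CPM (counts relative to library size, scaled by the trimmed mean of M values). Markers of the granulosa cells that surround the oocyte were uneven between pools of the same cohort. The summed level of the granulosa-defining genes Foxl2, Amh, Inha and Gja1 was 242, 5.12 and 303 CPM in the PND 13 pools and 8.41, 302 and 41.3 in the PND 16 small pools, against 51.2 to 68.3 in PND 16 large and 31.2 to 41.7 in PND 40. Over the whole list of 14 granulosa markers, all detected in every pool, the sums ranged from 401 to 798 CPM at PND 13, 445 to 779 in PND 16 small, 492 to 543 in PND 16 large and 403 to 457 at PND 40. By the criteria of a call given below, 3 of the 14 were lower in competent than in non-competent oocytes, against 11.2% of all genes. The median log2 fold change of the list in that comparison was -1.47, against -0.0046 over all genes. The theca marker Insl3 was at 0 in 11 of 12 pools, and the summed theca and stroma list reached at most 29.6 CPM in any pool. Each kinesin call lost or gained without the 3 granulosa-rich pools (PND 13 replicates 1 and 3, PND 16 small replicate 2) is given with its log2 fold change or adjusted p without them. Leaving them out was a choice made after the data were seen. Comparisons with PND 13 then held PND 13 replicate 2 alone, so for these only the log2 fold change is given and no call is read.

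The sequences below show what separates, or fails to separate, the members on which the results turn. Kifc1 and Kifc5b are near-identical minus-end-directed motors on chromosome 17 (build mm10, chr17:33875659-33890661 on the minus strand and chr17:26917091-26932583 on the plus strand), and the first stretch of read length within their coding sequences that held 2 or 3 differences is printed with those differences in capitals. It begins at base 33 of the Kifc1 and base 30 of the Kifc5b coding sequence.
Kifc1: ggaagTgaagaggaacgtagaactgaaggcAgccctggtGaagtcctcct
Kifc5b: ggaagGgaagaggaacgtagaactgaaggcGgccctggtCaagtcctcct
Counted from 1 at the 5′ end of the stretch and from Kifc1 to Kifc5b, the substitutions were T6G, A31G and G40C. Over the aligned coding sequence 1984 of 2016 bases, or 98.41%, were identical. Of all 50-base words of the transcripts, 47.6% of those of Kifc1 and 42.1% of those of Kifc5b also occurred in another gene, mostly in each other, so a share of their reads cannot be assigned and the counts of both are uncertain.

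Promoters were shown for Kif26a and Kif26b, which are paralogs that moved in opposite directions, and for the spindle motors Kif11 and Kif22. Each is the 250 bases before the gene's start in RefSeq (GRCm38.p6), on the gene's strand, with TTTGAA or the variant TTTAAA, and the box CCAAT, in capitals where either strand held them. The regions are chr12:112145958-112146207 for Kif26a, chr1:178528875-178529124 for Kif26b, chr19:37376132-37376381 for Kif11, all on the plus strand, and chr7:127042421-127042670 on the minus strand for Kif22.
Kif26a: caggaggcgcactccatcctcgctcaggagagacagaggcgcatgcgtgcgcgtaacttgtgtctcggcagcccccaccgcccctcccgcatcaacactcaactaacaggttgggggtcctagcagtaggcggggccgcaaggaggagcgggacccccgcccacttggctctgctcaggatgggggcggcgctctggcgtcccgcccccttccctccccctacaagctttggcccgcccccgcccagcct
Kif26b: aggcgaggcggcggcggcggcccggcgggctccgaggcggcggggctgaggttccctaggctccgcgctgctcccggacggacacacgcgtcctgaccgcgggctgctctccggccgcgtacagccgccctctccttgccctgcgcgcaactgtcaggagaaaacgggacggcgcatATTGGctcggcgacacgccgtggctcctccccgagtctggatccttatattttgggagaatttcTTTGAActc
Kif11: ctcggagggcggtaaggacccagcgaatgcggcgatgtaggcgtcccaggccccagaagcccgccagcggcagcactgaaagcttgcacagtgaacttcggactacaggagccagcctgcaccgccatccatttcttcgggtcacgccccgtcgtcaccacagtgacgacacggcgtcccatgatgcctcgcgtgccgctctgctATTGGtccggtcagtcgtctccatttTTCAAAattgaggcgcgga
Kif22: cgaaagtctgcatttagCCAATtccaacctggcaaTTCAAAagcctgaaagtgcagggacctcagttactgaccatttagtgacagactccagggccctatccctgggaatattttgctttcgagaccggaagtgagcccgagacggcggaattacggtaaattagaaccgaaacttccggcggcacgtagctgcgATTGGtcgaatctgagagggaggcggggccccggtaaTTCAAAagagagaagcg
TTTGAA and TTTAAA are core letters of cell cycle homology elements and CCAAT is the box bound by NF-Y, a pairing known from promoters of genes expressed in G2 and mitosis. TTTGAA or TTTAAA occurred in 5 of 14 promoters (35.7%) of the tested spindle assembly, chromosome, depolymerizing and cytokinesis kinesins, in 1 of 11 (9.09%) of the transport kinesins and in 28.1% of the 27025 promoters of all genes. CCAAT occurred in 9 of 14 (64.3%), in 3 of 11 (27.3%) and in 37.5%, respectively. Both occurred together in 3 of the 14 (21.4%), in 0 of the 11 transport promoters and in 10.1% of all. The printed promoters of Kif11 and Kif22 are among these 3 and are not typical of the 14. Those of Kif18a, Kif20b and Kif2a, not printed, held neither. In GENCODE M21 the windows of Kif14 and Kif2c, which count among the 5, lay inside the gene and not before it. The same was true of the window of Kif1a, the 1 transport kinesin with TTTGAA or TTTAAA. Kif14 is also among the 3 with both. These shares are therefore not shares of promoters alone, and such windows were not counted over all genes. These are counts of letters in a window, and windows were matched for 35 of the 44 members.

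Levels between genes were compared per length, as the mean CPM per kb of exons over the 12 pools, with all annotated exons of a gene merged. Merged exons came to 7901 bases for Kif23 and 5514 for Kif4. The transcript with the longest coding sequence held 3349 and 4934 words of 50 bases, respectively. The order of genes, that of Kif4 and Kif23 included, therefore depends on the length taken. Kif4, the chromokinesin that binds chromosome arms and organizes the spindle midzone, stood highest at 137 ± 24.1 CPM per kb (SD, n = 12). It was followed by Kif23, a subunit of the centralspindlin complex of cytokinesis, at 74.9 ± 13.3, by Kif2c, a depolymerizer at centromeres also called MCAK, at 68.5 ± 8.40, and by Kif14, a motor of the midbody, at 67.3 ± 6.66. With merged exons as the length, the lowest pool of Kif4 (113) lay above the highest of Kif23 (93.6), whereas the ranges of Kif23, Kif2c and Kif14 overlapped. The highest of the transport kinesins was Kif17 at 57.5 ± 11.0 CPM per kb, the only one of the first 8 genes that is not a spindle or depolymerizing kinesin.

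**Figure D1:**
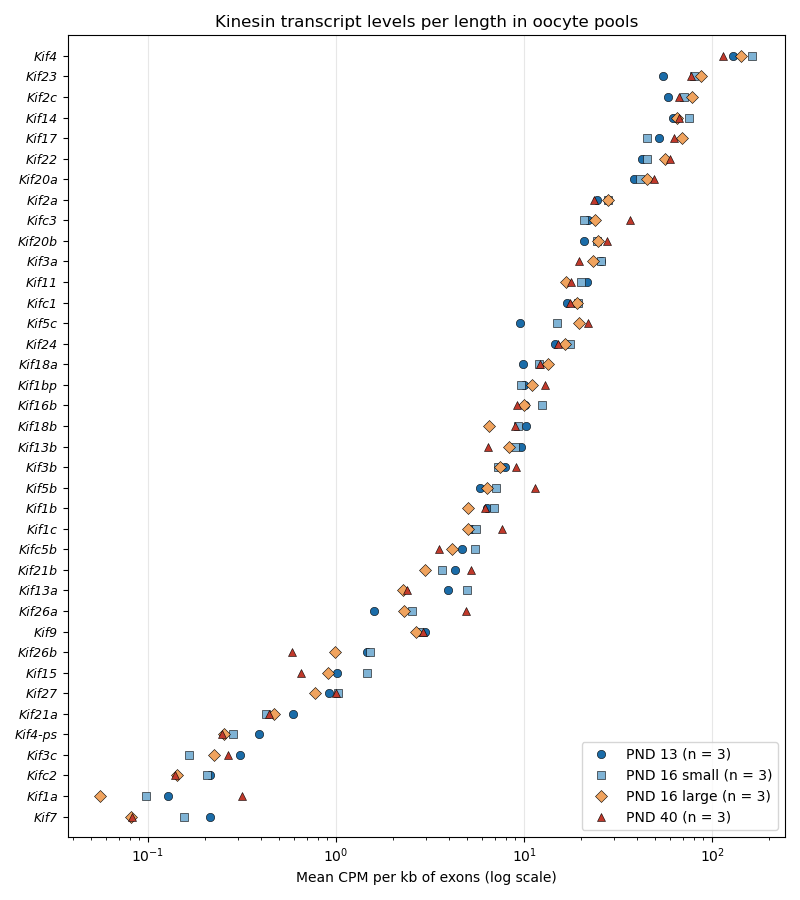
Mean CPM per kb of exons (log axis) of the 38 kinesin genes tested, in order of their mean over all pools; each symbol is the mean of the 3 pools of a cohort. Spindle and cytokinesis kinesins fill most of the top, from Kif4 at 137, and the cohorts lie close together for most genes.

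The classical transport motors lay lower. Kif3a, a subunit of heterotrimeric kinesin-2, was at 23.6 ± 3.12 CPM per kb, Kif5c at 16.5 ± 5.41 and Kif5b, the ubiquitous heavy chain of kinesin-1, at 7.69 ± 3.28, while Kif21a at 0.48, Kif3c at 0.24 and Kif1a at 0.15 were near the bottom. The 6 members not tested were Kif12, at 0 counts in every pool, Kif2b, Kif5a, Kif6, Kif19a and Kif16bos, a transcript of the opposite strand, and none of them exceeded 8 counts in a pool. At this depth a count of 0 allows up to 3 counts in a pool. Spindle assembly motors were not all abundant, since Kif15 stood at 1.01 ± 0.39 CPM per kb against 19.1 ± 2.74 for Kif11, with which it shares the task of pushing spindle poles apart.

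Over the whole family the values varied about as those of other genes did. In the median member with a mean of at least 10 CPM, the SD of log2 CPM within a cohort was 0.15 (31 members), against 0.14 over 7858 genes, and it was 0.14 at PND 13, 0.19 in PND 16 small, 0.10 in PND 16 large and 0.088 at PND 40. The median size of the log2 fold change, in either direction, was 0.37 for the 38 members in PND 40 vs. PND 13, against 0.39 over all genes. PND 40 held the highest mean for 12 members, PND 16 small for 12, PND 13 for 9 and PND 16 large for 5. Pools of the 2 groups did not overlap for 5 of 38 members in competent vs. non-competent oocytes (14.7% of all genes). Between cohorts this held for 9 (PND 16 small vs. PND 13, 18.1% of all genes) to 20 members (PND 40 vs. PND 13, 50.8%, and PND 40 vs. PND 16 small, 43.9%). Pools that do not overlap, as given for single members below, were thus common among all genes.

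A member was called where edgeR's quasi-likelihood test gave an adjusted p of at most 0.05 and the change was at least 1.5-fold. In PND 16 small vs. PND 13, 0 of 38 members were called, where 0.373% of all genes were; 11 of 38 had an unadjusted p under 0.05, as had 19.2% of the genes tested, DESeq2 called 1 (Kif5c) among 361 genes, and 1 (Kif23) passed the adjusted p alone, as did 0.925% of the genes tested. In PND 16 large vs. PND 13, Kif23 and Kif5c were higher and Kif13a was lower, which is 2 and 1 of 38 against 3.52% and 9.8% of the genes tested. In PND 40 vs. PND 13, Kif26a, Kif5b, Kif5c and Kifc3 were higher and Kif13a and Kif26b lower, against 6.31% and 12.6% of the genes tested. In PND 16 large vs. PND 16 small, 1 member rose (Kif17) and 1 fell (Kif13a), where 1.43% and 4.76% of the genes tested did. In PND 40 vs. PND 16 small, Kif26a and Kifc3 were higher and Kif13a, Kif15, Kif26b and Kifc5b lower, against 6.89% and 10.3% of the genes tested. In PND 40 vs. PND 16 large, Kif1c and Kif26a were higher and 0 were lower, against 2.34% and 1.32%. The comparison of 6 competent with 6 non-competent pools called Kif26a and Kif5c higher and Kif13a, Kif15 and Kif26b lower, against 3.78% and 11.2% of all genes. These comparisons share pools and do not count as separate evidence.

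In all, 11 members were called at least once, for which the share of all genes was not counted. In single comparisons the shares called lay near those of all genes. With the adjusted p alone, the members that passed numbered 11 of 38 in PND 16 large vs. PND 13 (25.6% of all genes), 15 in PND 40 vs. PND 13 (33.1%), 4 in PND 16 large vs. PND 16 small (12.3%), 16 in PND 40 vs. PND 16 small (30.2%), 4 in PND 40 vs. PND 16 large (6.83%) and 15 in competent vs. non-competent oocytes (30.7%).

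**Figure D2:**
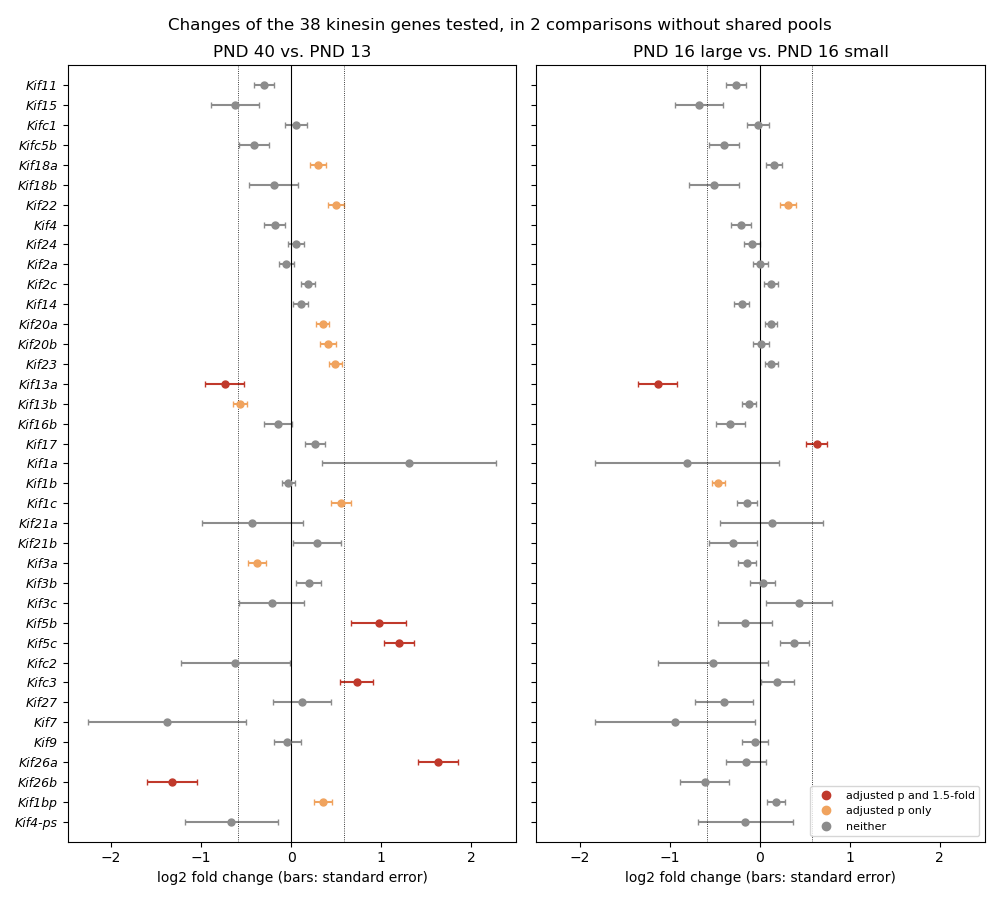
Log2 fold change with standard error of the 38 kinesin genes, ordered by role from spindle motors at the top to Kif1bp and Kif4-ps at the bottom, in 2 comparisons that share no pool; dotted lines mark 1.5-fold. The called members (red) are 6 in PND 40 vs. PND 13 and 2 in PND 16 large vs. PND 16 small, and Kif13a lies to the left in both.

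Of the 4 spindle assembly motors tested, 0 were called higher in any comparison, against at most 6.89% of all genes. A group of 4 is too small for this to set it apart. Kif11, the plus-end motor that separates the poles (Eg5), was at 149.9, 166 and 171 CPM at PND 13, at 176, 118 and 156 in PND 16 small, at 122, 126 and 126 in PND 16 large and at 129, 133 and 134 at PND 40. The competent pools were lower than 5 of the 6 others, the exception being PND 16 small replicate 2. Its log2 fold change in competent vs. non-competent oocytes was -0.28 ± 0.083 (SE; adjusted p = 0.0187), short of 1.5-fold. Kif15 was at 13.2, 7.27 and 12.9 CPM at PND 13, at 10.3, 18.3 and 19.7 in PND 16 small, at 8.92, 9.55 and 11.7 in PND 16 large and at 6.22, 7.88 and 7.57 at PND 40. All PND 40 pools lay below all PND 16 small pools, by a log2 fold change of -1.15 ± 0.27 (adjusted p = 0.0059), and this call was kept without the granulosa-rich pools (-1.04, adjusted p = 0.0137). The lowest non-competent pools of Kif15, PND 13 replicate 2 and PND 16 small replicate 1, were also the pools with the least granulosa signal. Its fall in competent vs. non-competent oocytes (-0.65 ± 0.22, adjusted p = 0.0388) was not called without the granulosa-rich pools (-0.51, adjusted p = 0.238), and leaving out single pools also ended it for 8 of the 12 pools (PND 13 replicates 1 and 3, PND 16 small replicates 2 and 3, PND 16 large replicate 1 and each PND 40 replicate), with values from -0.79 to -0.53.

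Kifc1, a minus-end motor that focuses spindle poles, passed the adjusted p in no comparison. Its levels were 56.7, 65.1 and 51.2 CPM at PND 13, 66.5, 75.7 and 56.7 in PND 16 small, 62.0, 62.8 and 71.8 in PND 16 large and 63.4, 57.9 and 58.2 at PND 40, and all cohorts overlapped. The near-identical Kifc5b was lower throughout, at 14.2, 21.8 and 15.9 CPM at PND 13, 23.0, 19.3 and 18.5 in PND 16 small, 14.4, 15.7 and 16.2 in PND 16 large and 14.4, 12.3 and 12.2 at PND 40. Every PND 40 pool of Kifc5b lay below every PND 16 small pool (log2 fold change -0.64 ± 0.16, adjusted p = 0.0102), though the change was under 1.5-fold without PND 16 small replicate 1 (-0.54). Against PND 13 the change was -0.41 (adjusted p = 0.0684). Without the granulosa-rich pools it was -0.74, with PND 13 replicate 2 the only PND 13 pool. Given the reads these genes share, the split between them is uncertain.

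The chromosome-moving motors diverged among themselves. Kif4 was at 792, 642 and 703 CPM at PND 13, at 745, 893 and 1072 in PND 16 small, at 802, 713 and 830 in PND 16 large and at 621, 638 and 625 at PND 40. PND 40 was the lowest cohort and its pools lay below all those of PND 16 small (-0.52 ± 0.11, adjusted p = 0.00412), a difference under 1.5-fold. Kif22, a chromokinesin that pushes chromosome arms, went the other way, from a mean of 207 CPM at PND 13 and 221 in PND 16 small to 275 in PND 16 large and 293 at PND 40. Its 6 competent pools lay above its 6 non-competent pools (0.41 ± 0.070, adjusted p = 0.000702), again short of 1.5-fold. Of the other 2 motors of chromosome alignment, Kif18a passed the adjusted p alone in PND 16 large vs. PND 13 (0.44 ± 0.094, adjusted p = 0.00486) and in PND 40 vs. PND 13 (0.30 ± 0.094, adjusted p = 0.0267), and Kif18b passed it in no comparison.

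Of the 3 depolymerizers tested, 0 were called in any comparison, against at most 6.89% of all genes called higher and 12.6% lower. A group of 3 is too small for this to set it apart. Kif2c was at 257, 267 and 240.0 CPM at PND 13, at 284, 350.0 and 299.6 in PND 16 small, at 353, 334 and 334 in PND 16 large and at 286, 288 and 294 at PND 40. The PND 16 large pools stood above all PND 13 pools (0.42 ± 0.077, adjusted p = 0.00217), by less than 1.5-fold. Kif2a, a depolymerizer at spindle poles, passed the adjusted p alone only in PND 40 vs. PND 16 small (-0.23 ± 0.083, adjusted p = 0.0461), and Kif24, known for limiting cilia at centrioles, in none of the 7 comparisons.

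All 4 cytokinesis motors had their lowest mean at PND 13. Kif23 was at 461, 439 and 398 CPM at PND 13, at 593, 648 and 660 in PND 16 small, at 740, 672 and 669 in PND 16 large and at 593, 612 and 619 at PND 40. Every later pool lay above the 3 PND 13 pools. Against PND 13 the log2 fold change was 0.55 ± 0.072 in PND 16 small (adjusted p = 0.0107), 0.68 ± 0.072 in PND 16 large (adjusted p = 0.000211) and 0.49 ± 0.072 at PND 40 (adjusted p = 0.000281). The PND 16 large change alone exceeded 1.5-fold, and it fell to 0.58 (adjusted p = 0.000201), under 1.5-fold, when counts were scaled by their totals. Kif20a, a kinesin of the central spindle (166.5 CPM at PND 13 and 212 at PND 40), and Kif20b (145 and 192) also passed the adjusted p alone in PND 40 vs. PND 13, whereas Kif14 did not. The exons of Kif20a overlap those of Cdc23 on the opposite strand over 29.3% of their length, and Cdc23 stood at 10.8 CPM against 189 for Kif20a.

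**Figure D3:**
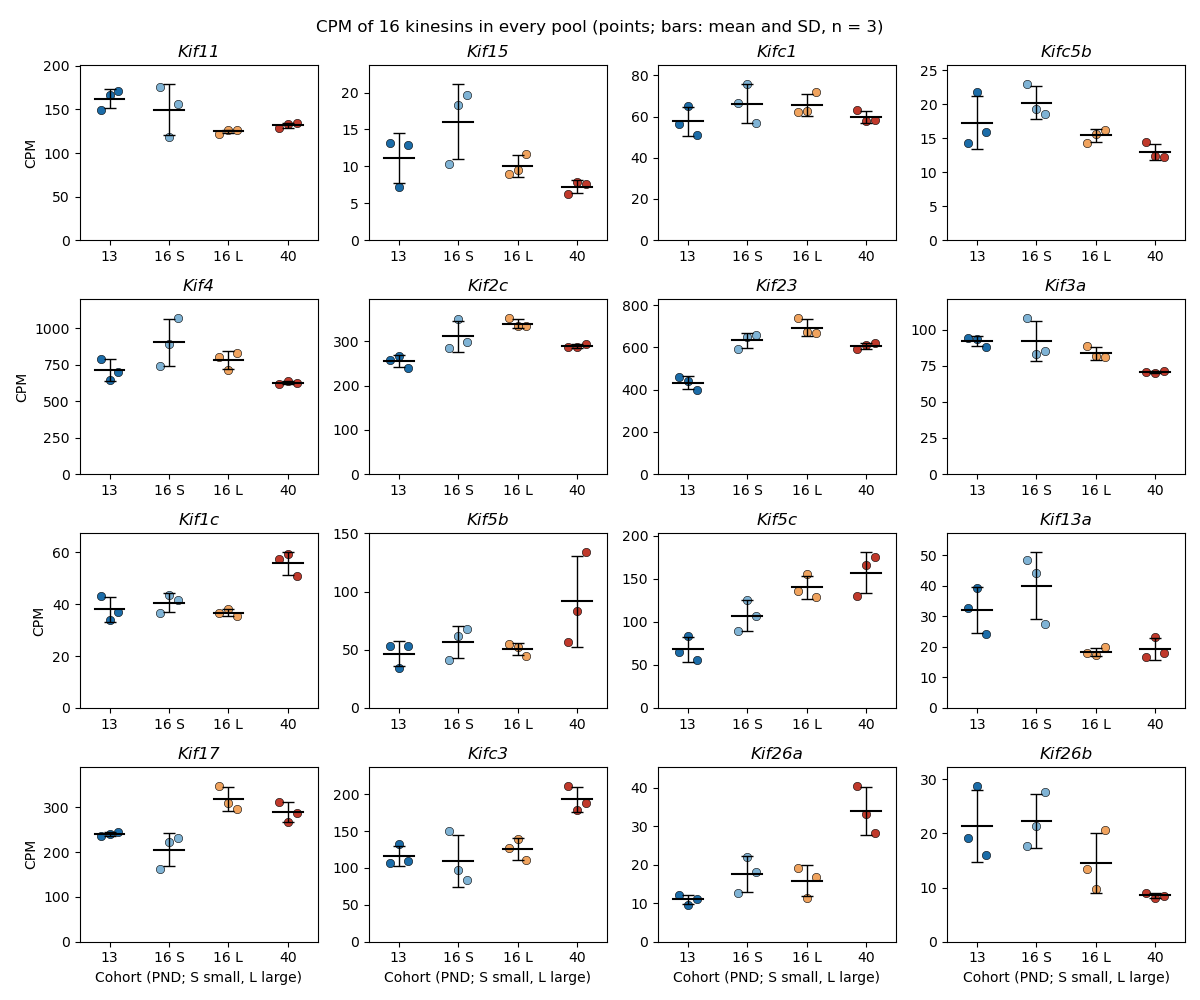
CPM of 16 kinesins in every pool (points, n = 3 per cohort; bars, mean and SD; axes start at 0). Kif13a separates the competent cohorts from the others, the mean of Kif5c increases from PND 13 to PND 40, Kif26a and Kif26b diverge at PND 40, and the PND 40 pools of Kif5b spread from 56.6 to 134.

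Among the transport kinesins, 16 of 17 were tested. They were 16 of the 38 members tested and 6 of the 11 called at least once, which is no marked excess. Kif5c, a kinesin-1 heavy chain best known from neurons, was at 65.1, 84.0 and 55.3 CPM at PND 13, at 89.2, 125 and 107 in PND 16 small, at 135, 155 and 129 in PND 16 large and at 129.7, 166 and 176 at PND 40. Its competent pools all lay above its non-competent pools. The log2 fold change was 1.04 ± 0.17 in PND 16 large vs. PND 13 (adjusted p = 0.00134), 1.20 ± 0.17 in PND 40 vs. PND 13 (adjusted p = 0.000276) and 0.76 ± 0.17 in competent vs. non-competent oocytes (adjusted p = 0.00417), and these calls were kept without any 1 pool. Against PND 16 small, PND 40 was higher by 0.56 ± 0.16 (adjusted p = 0.0238), under 1.5-fold, and by 0.69 without the granulosa-rich pools (adjusted p = 0.00464), which was called. Kif5b was at 52.9, 34.1 and 53.0 CPM at PND 13, at 41.3, 61.4 and 67.4 in PND 16 small, at 54.8, 52.8 and 44.7 in PND 16 large and at 56.6, 83.7 and 134 at PND 40. The PND 40 pools did not overlap those of PND 13 but spread widely, and the lowest lay within the range of PND 16 small. The log2 fold change against PND 13 was 0.97 ± 0.30 (adjusted p = 0.0313), and without PND 40 replicate 3 it was 0.59 (adjusted p = 0.101). The call was also lost without PND 40 replicate 2 (1.04) and without PND 13 replicate 1, 2 or 3 (1.07, 0.77 and 1.08), with no filter on low counts (0.96, adjusted p = 0.0663) and in a fit of only the cohorts compared (0.94, adjusted p = 0.106). Without the granulosa-rich pools the value was 1.43, with PND 13 replicate 2 the only PND 13 pool.

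Kif13a, a kinesin-3 of endosome and recycling traffic, had the most repeated fall. It was at 32.7, 39.2 and 24.3 CPM at PND 13, at 48.4, 44.3 and 27.5 in PND 16 small, at 18.0, 17.2 and 19.8 in PND 16 large and at 16.6, 23.2 and 17.9 at PND 40. All 6 competent pools lay below all 6 non-competent pools, with a log2 fold change of -0.94 ± 0.16 (adjusted p = 0.000631). In mice of the same age, PND 16 large vs. PND 16 small, it was -1.13 ± 0.22 (adjusted p = 0.00651), and without the granulosa-rich pools -1.05 (adjusted p = 0.0127). Against PND 13 the log2 fold change was -0.81 ± 0.22 in PND 16 large and -0.74 ± 0.22 at PND 40, and these calls did not hold without 3 (PND 13 replicate 2, PND 16 large replicates 1 and 2) and 4 (PND 13 replicates 1 and 2, PND 40 replicates 1 and 3) of the 6 pools, at values as small as -0.65 and -0.59. Its paralog Kif13b showed smaller differences, at a mean of 125 CPM at PND 13 and 84.2 at PND 40 (-0.57 ± 0.074, adjusted p = 0.00012).

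Kif17, a homodimeric kinesin-2, was at 235, 241 and 245 CPM at PND 13, at 163, 223 and 231 in PND 16 small, at 348, 311 and 297 in PND 16 large and at 312, 267 and 288 at PND 40. The competent pools were all above the non-competent ones. In PND 16 large vs. PND 16 small the log2 fold change was 0.63 ± 0.11 (adjusted p = 0.00462), and without PND 16 small replicate 1, the lowest pool, it was 0.49 (adjusted p = 0.00486), under 1.5-fold, as it was without PND 16 large replicate 1 (0.57). Kif3a, of the same kinesin-2 family, was lower at PND 40, with 70.9, 70.0 and 71.2 CPM against 94.4, 93.5 and 88.1 at PND 13, 108, 83.5 and 85.3 in PND 16 small and 89.0, 81.6 and 81.0 in PND 16 large. Its PND 40 pools lay below every other pool, and the change against PND 13 was -0.38 ± 0.096 (adjusted p = 0.00866), under 1.5-fold.

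Kifc3 and Kif1c were raised at PND 40. Kifc3, a minus-end motor of adherens junctions and Golgi, was at 107, 132 and 110.0 CPM at PND 13, at 149.6, 96.8 and 83.3 in PND 16 small, at 127, 140.0 and 110.4 in PND 16 large and at 212, 179 and 188 at PND 40. Every PND 40 pool exceeded every other pool. The log2 fold change was 0.73 ± 0.18 against PND 13 (adjusted p = 0.0107) and 0.81 ± 0.18 against PND 16 small (adjusted p = 0.00696). Without the granulosa-rich pools the value against PND 13 was 0.55, with PND 13 replicate 2 the only PND 13 pool. Kif1c, a kinesin-3 of vesicle and RNA traffic, was at 43.1, 33.8 and 37.1 CPM at PND 13, at 36.7, 43.6 and 41.5 in PND 16 small, at 36.6, 38.2 and 35.6 in PND 16 large and at 57.4, 59.2 and 50.8 at PND 40. PND 40 again stood above all other pools, and the change against PND 16 large was 0.60 ± 0.11 (adjusted p = 0.00787), which went under 1.5-fold or over the adjusted p without PND 16 large replicate 3 or PND 40 replicate 1 or 2 (lowest value 0.56). Against PND 13 it was 0.56 ± 0.11 (adjusted p = 0.00231), under 1.5-fold. Without the granulosa-rich pools it was 0.73, with PND 13 replicate 2 the only PND 13 pool.

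Of the remaining transport kinesins, 0 were called with all pools. Kif1b was lowest in PND 16 large, at a mean of 88.4 CPM against 122 in PND 16 small (-0.46 ± 0.072, adjusted p = 0.00272). Of the 3 cilia kinesins tested (Kif7, Kif9 and Kif27), 0 passed the adjusted p in any comparison, and with all pools the same was true of Kif3b, Kif16b, Kif21b and the low transport kinesins Kif1a, Kif3c, Kif21a and Kifc2. Kif21b, at a mean of 64.0 CPM at PND 40 against 36.3 in PND 16 large, had pools that did not overlap there but missed the adjusted p (0.82 ± 0.27, adjusted p = 0.0974). Without the granulosa-rich pools, Kif21a was called higher than in PND 16 small in PND 16 large (1.40, adjusted p = 0.0488) and at PND 40 (1.31, adjusted p = 0.0382), where the values with all pools were 0.13 and 0.05. Kif1a was then called higher at PND 40 than in PND 16 small (2.93, adjusted p = 0.0309). Against PND 13 its log2 fold change was 4.6, from a lone PND 13 pool with 3 counts. In the 3 pools left out, Kif1a stood at 1.00, 2.46 and 1.94 CPM, against 0.12 to 0.59 in the other non-competent pools. With 7 tested members under 10 CPM on average, differences among the low ones were not detectable at this depth unless large.

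Kif26a and Kif26b are atypical kinesins whose motor domain does not hydrolyse ATP and which are known from signalling and cell adhesion. Kif26a was at 12.1, 9.65 and 11.1 CPM at PND 13, at 12.7, 22.0 and 18.0 in PND 16 small, at 19.2, 11.4 and 16.9 in PND 16 large and at 40.5, 33.1 and 28.3 at PND 40. Its PND 40 pools lay above every other pool, and it held the largest called change of any member, a log2 fold change of 1.63 ± 0.23 in PND 40 vs. PND 13 (adjusted p = 0.000195). It was also higher at PND 40 than in PND 16 large (1.10 ± 0.22, adjusted p = 0.0112), but not without PND 40 replicate 1 (adjusted p = 0.0542). The competent group as a whole overlapped the other, with a log2 fold change of 0.81 ± 0.29 and an adjusted p of 0.04998, and of 0.1265 without the granulosa-rich pools. It was lost without any of the PND 13 or PND 40 pools, PND 16 small replicate 1 or 3 or PND 16 large replicate 1, under other scalings and with no filter on low counts. Kif26b was at 19.2, 28.8 and 16.1 CPM at PND 13, at 17.7, 21.4 and 27.6 in PND 16 small, at 13.5, 9.67 and 20.5 in PND 16 large and at 9.01, 8.12 and 8.53 at PND 40. Here the PND 40 pools lay below every other pool, by -1.32 ± 0.28 against PND 13 (adjusted p = 0.00304) and -1.38 ± 0.28 against PND 16 small (adjusted p = 0.00266), and the competent comparison gave -0.92 ± 0.23 (adjusted p = 0.00866). So the promoter with TTTGAA and CCAAT printed above belongs to the paralog that was lower at PND 40, and the one with neither to the paralog that was higher; the bearing of these letters on the levels was not tested.

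The partners of the kinesins were counted from fixed lists. Of 13 light chains and adaptors tested, 0 were higher and 3 lower in competent vs. non-competent oocytes, where 3.78% and 11.2% of the genes tested were, with a list median of -0.01 on the log2 scale and a median of -0.0046 over all genes. These were Klc3, a kinesin-1 light chain (1.16 vs. 3.57 CPM), Kifap3, the accessory subunit of kinesin-2 (6.04 vs. 11.4), and Mapk8ip3, an adaptor of kinesin-1 cargo (53.6 vs. 80.6). Kifap3 thus fell (-0.92 ± 0.19, adjusted p = 0.00281) where its partner Kif3a fell by less than 1.5-fold (-0.25 ± 0.082, adjusted p = 0.03). Of 21 subunits and regulators of dynein and dynactin, which drive transport the opposite way, 0 were higher and 1 lower, the heavy chain Dync1h1 (132 vs. 216 CPM, -0.71 ± 0.089, adjusted p = 8.41e-05), a share under the 11.2% of all genes, and the list median was -0.02. Of 29 spindle microtubule factors, 1 was higher (Haus7, 27.9 vs. 15.4 CPM) and 1 lower (Haus2, 1.54 vs. 4.10), both subunits of the augmin complex that branches spindle microtubules, and the list median was 0.13. Between single cohorts, 0 to 1 light chains and adaptors were higher and 0 to 4 lower. PND 16 large vs. PND 13 held the most, with 1 of 13 higher and 4 lower, against 3.52% and 9.8% of all genes. For dynein and dynactin 0 to 2 were higher and 0 to 3 lower. In PND 40 vs. PND 16 large 2 of 21 were higher and 0 lower, against 2.34% and 1.32%. In PND 40 vs. PND 16 small 1 was higher and 3 lower, against 6.89% and 10.3%. For spindle microtubule factors 0 to 2 of 29 were higher and 0 to 1 lower. Their most, 2 higher and 1 lower, came in PND 16 large vs. PND 13, against 3.52% and 9.8%.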

How the data were processed

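RNA-Seq libraries of 12 oocyte pools were analysed. Raw counts of reads per gene, not normalized, were the deposited values used here. The labels give directional libraries depleted of ribosomal RNA and 50-base reads. The submitters' processing notes list FastQC, STAR, HTSeq, DESeq2, DESeq and HOMER and the build mm10, and the strand setting of the counting is not given in the sources used here. Genes were filtered by filterByExpr (minimum count 10), scaled by the trimmed mean of M values and tested with edgeR 4.0.16 (quasi-likelihood, robust, two-sided, Benjamini-Hochberg over 13943 genes) in 1 model of the 4 cohorts, and in a model of 2 groups of 6 pools for competence. Nothing states that pools came from separate mice, so p-values measure the spread between pools, which may be partly technical. CPM used the same scaling; lengths and overlaps came from GENCODE M21. On simulated data for PND 40 vs. PND 13 (13646 genes), the test recovered 47.5% of genes changed by 1 and 96.9% of those changed by 2 on the log2 scale, and 4.76% of its calls were false. The simulation gave all genes and cohorts the same fixed dispersion, not estimated from these pools, so these shares do not measure the power in the data. DESeq2 1.42.0, other scalings and filters, a replicate block and left-out pools were alternatives. Values in every pool were given for members called at least once, the 3 with the highest level per length and Kif11, Kifc1, Kif5b, Kif3a and Kif2c. The members, roles and lists were chosen with earlier results of these data known. Normalized log2 values were not used.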

Additional observations from a re-analysis of the deposited data

Results flagged for a closer look

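In the groups of 6 pools, each of 16 kinesins was examined for a pool far from the others, 32 groups in all, of which chance flags about 1 in 20. A single value stood apart: Kif17 in PND 16 small replicate 1, at 163 CPM, the lowest of the 6 non-competent pools, where the nearest was at 223. Its gap was 0.73 of the group's range, above Dixon's critical value for 6 samples. That pool had little granulosa signal (8.41 CPM for the 4 defining genes), as had PND 13 replicate 2 (5.12), where Kif17 was at 241.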

How the results depend on the processing

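Of 24 calls of a kinesin in a comparison, 20 were kept under every alternative of tool, scaling, filter, block and choice of cohorts, 15 were kept without any 1 pool, and 0 values reversed. Without the 1.5-fold criterion the numbers called were 1 (PND 16 small vs. PND 13), 11 (PND 16 large vs. PND 13), 15 (PND 40 vs. PND 13), 4 (PND 16 large vs. PND 16 small), 16 (PND 40 vs. PND 16 small), 4 (PND 40 vs. PND 16 large) and 15 (competent vs. non-competent), where the main numbers were 0, 3, 6, 2, 6, 2 and 5. With DESeq2, 1 member was called in PND 16 small vs. PND 13. For PND 40 vs. PND 16 large it gave 6 calls, where a fit of those cohorts alone gave 4, and the cause was not tested. Leaving out 1 pool gave 0 to 4 in PND 16 small vs. PND 13, the highest without PND 16 small replicate 1 (Kif15, Kif23, Kif26a and Kif5c), 1 to 3 in PND 16 large vs. PND 16 small, the lowest without PND 16 large replicate 1, 1 to 2 in PND 40 vs. PND 16 large, and 3 to 5 in competent vs. non-competent, where 3 (Kif13a, Kif26b and Kif5c) also remained without the 3 granulosa-rich pools. Without those pools, calls of Kif1a, Kif5c and Kif21a were gained against PND 16 small. Against PND 13, where a lone PND 13 pool then remained, calls were not counted. In PND 40 vs. PND 16 large the count was 1 without PND 16 large replicate 3, PND 40 replicate 1 or PND 40 replicate 2. The calls of Kif15 and Kif26a in competent vs. non-competent were lost without 8 and 9 of the 12 pools, and that of Kif5b in PND 40 vs. PND 13 without 5 of 6. Scaling by total counts gave a median log2 fold change of all genes of -0.12 (PND 16 small vs. PND 13) and -0.13 (PND 16 large vs. PND 13). With the main scaling these medians were -0.026 and -0.036. With the replicate number as a replicate block, competent vs. non-competent called 3 (Kif13a, Kif26b and Kif5c) and lost Kif15 and Kif26a, and no other count moved by over 1.5 times; same-numbered pools correlated from -0.44 to 0.075, so the numbers did not pair them. Differences of members under 10 CPM are limited by depth.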
